A study of Mus musculus with 4 samples.

Results

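The aldehyde dehydrogenases described here are 10 genes: Aldh1a1, Aldh1a7, Aldh1b1, Aldh1l1, Aldh2, Aldh3a2, Aldh5a1, Aldh6a1, Aldh7a1 and Aldh8a1. They were taken as the probe sets, groups of array probes for 1 transcript, to which the platform's annotation gives exactly 1 of these symbols. This found 18 probe sets among 45101 on the array, and all 10 genes are among the 13379 genes tested. Total RNA from liver was measured on 4 Affymetrix arrays, 2 from Cnot3+/- mice and 2 from wild-type mice, which are called Cnot3+/- 1, Cnot3+/- 2, wild-type 1 and wild-type 2 after their labels. All were male C57BL/6J mice on normal chow, 12 weeks old and without food for 24 h, so every group was measured in the fasted state only. The Cnot3+/- mice carry 1 altered copy of Cnot3, whose product belongs to CCR4-NOT, the main deadenylase of mRNA. The labels do not describe the allele further. The design sets the 2 genotypes against each other. The genes were selected on their symbols with earlier results of this same contrast in view, and Aldh1b1 was singled out by its difference between the genotypes. The differences below are therefore descriptions, and no member is put forward on its p-value.

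Aldehyde dehydrogenases oxidise aldehydes to carboxylic acids with NAD or NADP as the acceptor. The liver expresses many of them. Some clear reactive aldehydes from alcohol and from lipid peroxidation, some make retinoic acid, and others carry a single step of folate or amino acid breakdown.

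Cnot3 itself had log2 values of 7.70 and 7.86 in Cnot3+/- livers, against 7.48 and 8.14 in wild-type livers, so the groups overlapped. A second, dimmer Cnot3 probe set had 5.54 and 5.54 in Cnot3+/- livers, against 5.33 and 5.52 in wild-type livers, higher in both Cnot3+/- arrays by a difference of 0.11 (SE 0.14). Neither probe set bears out the labels. The position of the probes relative to the altered part is unknown here, and each direction below rests on the arrays as labelled. Median values of all probe sets on the 4 arrays lay between 4.62 and 4.66. The Cnot3+/- arrays lay at least 2-fold apart (1 on the log2 scale) in 432 genes, against 74 genes for the wild-type arrays. The 8 hepatocyte markers, among them Alb and Apoa1, averaged 13.77 and 13.68 in Cnot3+/- livers, against 13.57 and 13.70 in wild-type livers. The 8 macrophage markers were all higher on Cnot3+/- 2 than on the other arrays, with means of 7.49 (Cnot3+/- 1) and 9.67 (Cnot3+/- 2), set against 7.67 and 7.91 for the wild-type livers. The 6 sinusoidal endothelial markers averaged 6.85 and 7.66 in Cnot3+/- livers, against 7.71 and 7.85 in wild-type livers. All 6 were lower in Cnot3+/- livers, 4 of them without overlap of the groups, as were 17.4% of all genes tested. The 7 stellate cell markers averaged 6.72 and 7.53 in Cnot3+/- livers, against 7.16 and 7.19 in wild-type livers. In RNA from whole liver, fewer cells of a type and less RNA per cell cannot be told apart.

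Aldh1b1 was the member that stood apart. It encodes a mitochondrial enzyme of the same family branch as Aldh2 that acts on acetaldehyde and retinal. Its log2 values were 8.47 and 8.21 in Cnot3+/- livers, against 7.38 and 6.97 in wild-type livers. The lowest Cnot3+/- value lay 0.83 above the highest wild-type value, while the arrays of a genotype lay 0.26 apart in Cnot3+/- and 0.41 apart in wild-type. The means were 8.34 ± 0.18 in Cnot3+/- and 7.18 ± 0.29 in wild-type livers (SD, n = 2 each), a log2 difference of 1.16 (limma moderated SE 0.20, 95% interval 0.66 to 1.67), or 2.24-fold. Ordered by size of difference in either direction, Aldh1b1 was number 49 of the 13379 genes. Its adjusted p was 0.999 in limma with Benjamini-Hochberg adjustment over all genes, so it did not pass the threshold of 0.05.

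With each array left out in turn, the difference of Aldh1b1 had a lowest value of 0.96 (wild-type 2 left out) and a highest of 1.37 (wild-type 1 left out); its sign could not turn, since the groups do not overlap. The means of 2 marker lists were likewise higher on both Cnot3+/- arrays than on both wild-type arrays. The 8 pericentral hepatocyte markers averaged 10.73 and 10.71 in Cnot3+/- livers, against 10.34 and 10.59 in wild-type livers. Of these, 5 were higher and 3 lower, with the glutamate transporter gene Slc1a2 furthest apart at 0.95 (SE 0.18, limma adjusted p = 0.999). By comparison, the 5 periportal hepatocyte markers tested, 4 higher and 1 lower, had means that overlapped between the genotypes. They were 11.58 and 11.39 in Cnot3+/- livers, against 11.42 and 11.24 in wild-type livers. Of 5 cholangiocyte markers, the 3 tested were all higher, with means of 4.70 and 4.94 in Cnot3+/- livers, against 4.46 and 4.61 in wild-type livers. These are dim values, near the array medians of 4.62 to 4.66. Only 1 of the 3 had groups that did not overlap. The part of these cells, and of macrophages, in the Aldh1b1 value was not tested. The gene has 1 probe set here, so no second measurement of it was available within the array. Its promoter window is shown because Aldh1b1 is the member with the largest difference. It is 300 bases long, from 250 before to 50 after the start of the gene in RefSeq, at chr4:45798772-45799071 on the plus strand of GRCm38.p6. Capitals mark the motif matches described next.
Aldh1b1: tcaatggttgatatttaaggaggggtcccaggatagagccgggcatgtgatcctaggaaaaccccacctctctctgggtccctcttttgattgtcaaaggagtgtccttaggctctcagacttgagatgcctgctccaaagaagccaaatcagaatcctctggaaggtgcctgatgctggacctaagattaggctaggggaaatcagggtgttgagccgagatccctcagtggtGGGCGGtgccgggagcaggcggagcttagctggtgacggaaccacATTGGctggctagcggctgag

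The window was searched on both strands for 6 motifs, none of whose matches overlapped. It holds 1 GC box (GGGCGG), at bases 235 to 240 of the window, a motif found in 35.7% of the 32851 promoter windows of the same table. It also holds 1 CCAAT box (CCAAT) read on the minus strand, at bases 280 to 284 and thus after the start, against 37.4% of all windows with that motif. The letters of the TATA box (TATAAA, in 13.6% of all windows), the E-box (CACGTG, 7.15%), the forkhead motif (TGTTTAC, 3.65%) and the STAT motif (TTCNNNGAA, 8.3%) are not in this window. The GC content of the window was 54.7%, against a median of 52.7% over all windows. These matches describe the sequence and are not evidence that a factor binds there. Of the 10 members, 8 have a promoter entry in that table.

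Aldh2, which encodes the mitochondrial enzyme that removes most acetaldehyde in the liver, had a mean level with wild-type. Its values were 13.16 and 12.99 in Cnot3+/- livers, against 13.07 and 13.08 in wild-type livers. The groups overlapped, with Cnot3+/- 1 above and Cnot3+/- 2 below both wild-type arrays. The difference of 0.00037 (SE 0.14, interval -0.35 to 0.35, limma adjusted p = 1) thus averages opposite values. It was -0.08 without Cnot3+/- 1 and 0.08 without Cnot3+/- 2. The other 4 Aldh2 probe sets, all dimmer, had differences between -0.06 and 0.21, and their groups overlapped as well. The interval of Aldh2 lies wholly below that of Aldh1b1 on the log2 scale; the difference between the genes was not tested.

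Aldh3a2 encodes the fatty aldehyde dehydrogenase of the endoplasmic reticulum, which oxidises long-chain aldehydes and is lost in human Sjögren-Larsson syndrome. It had the widest spread of any member within a genotype. Its value was 10.35 in Cnot3+/- 1, and Cnot3+/- 2 had 10.99, where the wild-type livers had 10.71 and 10.76. Cnot3+/- 1 lay below and Cnot3+/- 2 above both wild-type arrays, so the mean difference of -0.07 (SE 0.24, limma adjusted p = 1) averages opposite values. It was 0.25 without Cnot3+/- 1 and -0.39 without Cnot3+/- 2. Macrophage markers were also highest on Cnot3+/- 2. So were the marker means of stellate cells, neutrophils, cholangiocytes, and B and T cells, but the single markers of these lists were mixed. Of the 7 neutrophil markers tested, 3 were higher and 4 lower in Cnot3+/- livers, and Cxcr2, Elane and Camp were lowest on Cnot3+/- 2. The B cell marker Cd79a was lowest there too. Krt19 of the cholangiocyte list was highest on Cnot3+/- 1, and the stellate markers Reln, Ngfr and Des were highest on a wild-type array. The part of all these cell types in the Aldh3a2 value was not tested.

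**Figure D1:**
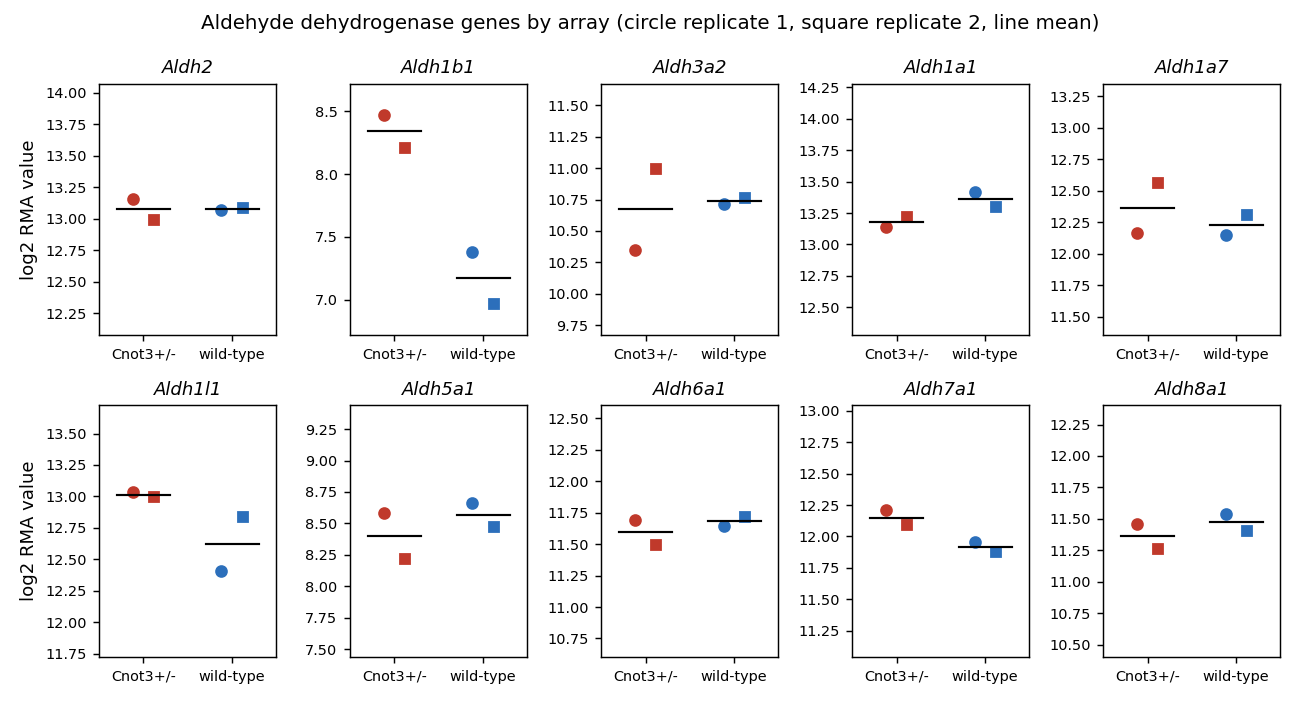
Log2 RMA value of each of the 10 genes (vertical axis, 2 log2 units high in every panel) in Cnot3+/- and wild-type livers, with a circle for replicate 1, a square for replicate 2 and a line at the mean. Aldh1b1 shows the widest gap between the genotypes, with 8.47 and 8.21 in Cnot3+/- livers, against 7.38 and 6.97 in wild-type livers, and Aldh3a2 the widest gap between arrays of a genotype.

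Aldh1a1 and Aldh1a7 encode cytosolic enzymes that are near copies, and a probe set of one may pick up RNA of the other. Aldh1a1 oxidises retinal to retinoic acid. Its values were 13.14 and 13.22 in Cnot3+/- livers, against 13.42 and 13.30 in wild-type livers. The groups did not overlap, with the Cnot3+/- arrays lower by a gap of 0.09. The difference was -0.18 (SE 0.13, interval -0.52 to 0.16, limma adjusted p = 0.999). Aldh1a7 had values of 12.17 and 12.56 in Cnot3+/- livers, against 12.14 and 12.30 in wild-type livers. The groups overlapped, and the difference of 0.14 (SE 0.18, limma adjusted p = 0.999) rested on Cnot3+/- 2, without which it was -0.06.

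Aldh1l1 encodes the cytosolic formyltetrahydrofolate dehydrogenase, which releases a one-carbon unit as carbon dioxide and returns tetrahydrofolate. Its values were 13.04 and 12.99 in Cnot3+/- livers, against 12.41 and 12.83 in wild-type livers. The Cnot3+/- arrays were close to each other and above both wild-type arrays, and wild-type 1 was the low array. The difference was 0.39 (SE 0.18, interval -0.07 to 0.86, limma adjusted p = 0.999), and it was 0.18 without wild-type 1 and 0.60 without wild-type 2. A second, dimmer Aldh1l1 probe set had values of 6.59 and 6.04 in Cnot3+/- livers, against 6.18 and 6.00 in wild-type livers. Its groups overlapped and its difference was 0.23 (SE 0.22).

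The remaining members each act in the breakdown of an amino acid or of a product of one. Aldh7a1, also called antiquitin, oxidises an aldehyde of lysine breakdown. Its values were 12.21 and 12.09 in Cnot3+/- livers, against 11.95 and 11.87 in wild-type livers. The Cnot3+/- arrays lay above wild-type by a gap of 0.14, and the difference was 0.24 (SE 0.13, interval -0.11 to 0.58, limma adjusted p = 0.999). The 2 dim probe sets of Aldh7a1 overlapped between the groups, with differences of -0.02 and -0.09. With the 3 probe sets averaged, the gene's difference was 0.042.

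Aldh8a1 encodes the aminomuconate semialdehyde dehydrogenase of the kynurenine pathway of tryptophan. On the brighter of its 2 probe sets the values were 11.46 and 11.26 in Cnot3+/- livers, against 11.54 and 11.40 in wild-type livers. The groups overlapped there, with a difference of -0.11 (SE 0.15, limma adjusted p = 0.999) that ran from -0.21 without Cnot3+/- 1 to -0.01 without Cnot3+/- 2. On the other probe set they did not overlap, at 10.49 and 10.36 in Cnot3+/- livers, against 10.71 and 10.56 in wild-type livers, a difference of -0.21 (SE 0.14).

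Aldh5a1, the succinic semialdehyde dehydrogenase that ends GABA breakdown, had values of 8.59 and 8.22 in Cnot3+/- livers, against 8.66 and 8.47 in wild-type livers. Aldh6a1, the mitochondrial methylmalonate semialdehyde dehydrogenase of valine and thymine breakdown, had values of 11.69 and 11.49 in Cnot3+/- livers, against 11.65 and 11.72 in wild-type livers. In each gene Cnot3+/- 2 was the lowest array and the groups overlapped. The differences were -0.16 (SE 0.18) for Aldh5a1 and -0.09 (SE 0.14) for Aldh6a1, each with a limma adjusted p = 0.999. Without Cnot3+/- 2 they were 0.02 and 0.01.

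**Figure D2:**
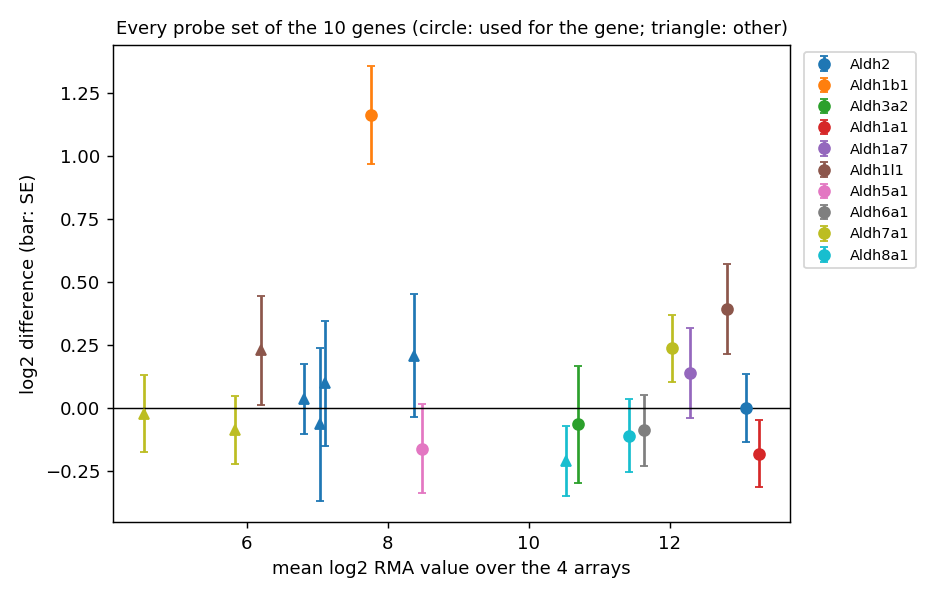
Log2 difference, Cnot3+/- minus wild-type, with its SE (vertical axis), against the mean log2 RMA value over the 4 arrays (horizontal axis) for the 18 probe sets of the 10 genes. Circles are the probe sets that represent a gene and triangles are the others; levels of different probe sets cannot be set against each other. Aldh1b1 lies at 1.16 and the other probe sets lie between -0.21 and 0.39.

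Over the whole group, 5 members were higher and 5 lower in Cnot3+/- livers; their median difference was -0.03, against -0.01 over all genes tested. None of the 10 passed the threshold in limma, where 2 of 13379 genes did (0.0149%). At an unadjusted p under 0.05 there was 1 member, Aldh1b1, against 3.57% of all genes. A limma fit without moderation of variances likewise called 0 members, and 1 member had an unadjusted p under 0.05 there. The groups did not overlap in 4 members, of which Aldh1b1, Aldh1l1 and Aldh7a1 were higher and Aldh1a1 was lower. Over all genes tested this held for 31.5%, with Cnot3+/- higher in 14.1% and lower in 17.4%. A difference of at least 2-fold was seen in 1 member, Aldh1b1, against 0.605% of all genes. Nothing is read from these counts, since the members were chosen with this comparison in view. The central 95% of differences over all genes ran from -0.42 to 0.55. Aldh1b1 lay outside this range and the other 9 members inside it.

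**Figure D3:**
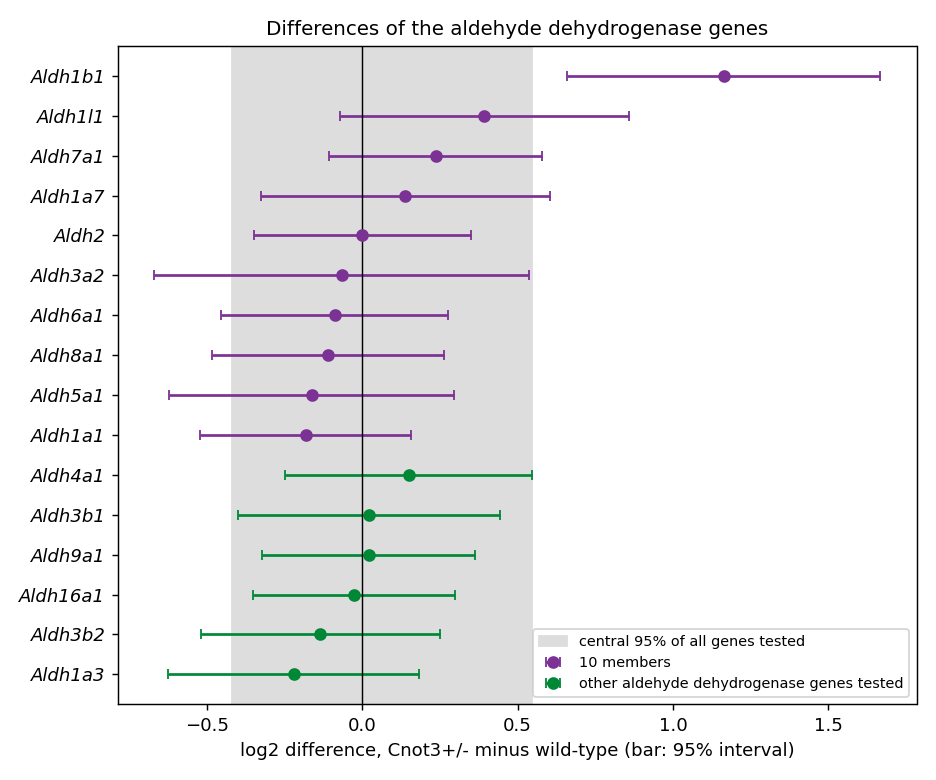
Log2 difference, Cnot3+/- minus wild-type (horizontal axis), with 95% intervals from limma for the 10 members and the 6 other aldehyde dehydrogenase genes tested, over a grey band that holds the central 95% of differences of all genes tested (-0.42 to 0.55). The interval of Aldh1b1, 0.66 to 1.67, lies to the right of the band, and the intervals of the other 15 genes include 0.

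**Figure D4:**
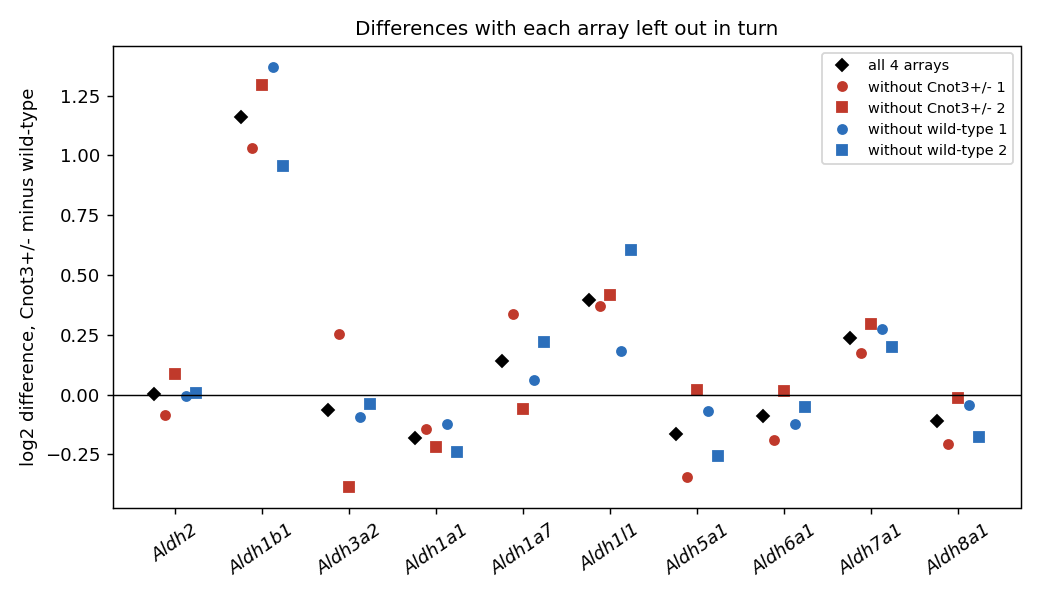
Log2 difference, Cnot3+/- minus wild-type (vertical axis), of each of the 10 genes with all 4 arrays (diamonds) and with each array left out in turn (circles and squares). Aldh1b1 stays between 0.96 and 1.37, while Aldh3a2 runs from -0.39 to 0.25.

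Other genes of the family were taken from a list of 11. Of these, 6 were tested, with 3 higher and 3 lower in Cnot3+/- livers, and 0 passed in limma or had an unadjusted p under 0.05. Aldh4a1, which carries the last step of proline breakdown, differed by 0.15 (SE 0.16), and by 0.0043 without wild-type 1. Aldh9a1, which acts in carnitine synthesis, differed by 0.02 (SE 0.13), Aldh3b1 by 0.02 (SE 0.17), Aldh16a1 by -0.03 (SE 0.13) and Aldh3b2 by -0.13 (SE 0.15). Aldh1a3, a retinal dehydrogenase, differed by -0.22 (SE 0.16) on a probe set with values between 3.89 and 4.33, and its other probe sets differed by 0.12 and 0.21. Aldh1a2, Aldh1l2, Aldh3a1 and Aldh18a1 lay below the filter on dim probe sets. Aldh1l2, the mitochondrial counterpart of Aldh1l1, stood at 3.77 and 3.76 in Cnot3+/- livers, against 4.28 and 4.30 in wild-type livers. Its difference was -0.52 (SE 0.13), in a range where RMA values shrink differences. Of the 5 Aldh18a1 probe sets, 1 differed by 0.77 (SE 0.27) without overlap of the groups. The others overlapped and differed by between -0.09 and 0.02. Aldh1a2 differed by -0.03 (SE 0.13) and Aldh3a1 by -0.19 (SE 0.13). Aldh3b3 had no probe set with a single symbol.

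The genes around the members in their pathways gave no call. Of 92 partner genes tested in 8 lists, 39 were higher and 53 lower, and their median difference was -0.02. None passed in limma. An unadjusted limma p under 0.05 was seen in 3 of the 92, Bckdhb, Rdh10 and Stra6, against 3.57% of all genes tested.

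Among 14 genes of alcohol and aldehyde handling, which supply or share the substrates of Aldh2 and Aldh1b1, 5 were higher and 9 lower. The alcohol dehydrogenase gene Adh1 differed by -0.08 (SE 0.13), Adh5, which clears formaldehyde, by -0.10 (SE 0.17), and Cyp2e1, the ethanol-oxidising cytochrome, by -0.02 (SE 0.13). The largest differences were those of the glutathione transferase gene Gsta4 at -0.34 (SE 0.28) and the aldehyde oxidase gene Aox3 at 0.31 (SE 0.16). Without wild-type 1 they were 0.028 for Gsta4 and 0.16 for Aox3, and without wild-type 2 Gsta4 was -0.71. Of 10 genes around Aldh3a2 in fatty aldehyde and lipid handling, 1 was higher and 9 were lower. Hacl1, the peroxisomal lyase that makes a fatty aldehyde for oxidation, stood at 11.55 and 11.43 in Cnot3+/- livers, against 11.88 and 11.72 in wild-type livers, a difference of -0.31 (SE 0.14). The epoxide hydrolase gene Ephx2 differed by -0.18 (SE 0.13) and Phyh, which acts before Hacl1, by -0.01 (SE 0.13).

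Retinoid handling, the pathway of Aldh1a1, had 5 of 14 genes higher and 9 lower, and a median difference of -0.21. Rdh10, the retinol dehydrogenase that makes retinal, stood at 8.66 and 8.61 in Cnot3+/- livers, against 9.01 and 8.95 in wild-type livers. These groups did not overlap, and the difference was -0.34 (SE 0.13, limma adjusted p = 0.999). The retinal reductase gene Rdh11 differed by 0.45 (SE 0.20), and by 0.21 without Cnot3+/- 2. Stra6, the retinol uptake receptor, differed by -0.43 (SE 0.17) at dim values, and Dhrs3 by -0.14 (SE 0.14). Some genes of this list are made by stellate cells. Lrat, which stores retinol as esters and also stands among the stellate markers, was 6.25 in Cnot3+/- 1 and 7.52 in Cnot3+/- 2, where wild-type livers had 7.03 and 7.22, and the stellate marker mean was likewise lowest in Cnot3+/- 1 and highest in Cnot3+/- 2. The part of these cells in the retinoid values was not tested.

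Among 18 folate genes around Aldh1l1, 10 were higher and 8 lower, and the median difference was 0.01. Mthfd1, whose enzyme makes and uses the same formyl folate, differed by -0.18 (SE 0.16) and Ftcd, which passes one-carbon units from histidine breakdown to folate, by 0.03 (SE 0.20). Gcsh, of the glycine cleavage system, and Fpgs, which adds glutamates to folate, had the largest differences, at -0.23 (SE 0.17) and -0.21 (SE 0.14). In valine and other branched-chain breakdown, the pathway of Aldh6a1, 6 of 14 genes were higher and 8 lower. Bckdhb, a subunit of the branched-chain ketoacid dehydrogenase, stood at 11.10 and 10.90 in Cnot3+/- livers, against 10.37 and 10.37 in wild-type livers, a difference of 0.63 (SE 0.14, limma adjusted p = 0.999). The propionyl-CoA carboxylase subunit gene Pcca differed by 0.26 (SE 0.15), and Hibadh, which makes the substrate of Aldh6a1, by -0.05 (SE 0.15).

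Of 7 lysine breakdown genes around Aldh7a1, 4 were higher and 3 lower. Aass, which starts the pathway, stood at 11.42 and 11.35 in Cnot3+/- livers, against 11.23 and 10.88 in wild-type livers, a difference of 0.33 (SE 0.17, limma adjusted p = 0.999). The difference of Aass was 0.16 without wild-type 2. The aminoadipate aminotransferase gene Aadat differed by 0.21 (SE 0.23) and the glutaryl-CoA dehydrogenase gene Gcdh by -0.03 (SE 0.13). Aadat was -0.0065 without Cnot3+/- 1. Of 7 genes of GABA and succinate, 4 were higher, and Abat, which makes the substrate of Aldh5a1, differed by 0.19 (SE 0.19) and the ornithine aminotransferase gene Oat by 0.16 (SE 0.13). Of 8 genes of tryptophan and kynurenine, 4 were higher. The indoleamine dioxygenase gene Ido2 differed by -0.51 (SE 0.27), and by -0.21 without wild-type 1. The kynurenine formamidase gene Afmid differed by -0.21 (SE 0.24), turning to 0.08 without Cnot3+/- 2, and the kynurenine monooxygenase gene Kmo by 0.02 (SE 0.18). Adh5, Cyp2e1, Phyh, Ftcd, Hibadh, Gcdh and Kmo also turned sign with at least 1 array left out, as did Aldh9a1, Aldh3b1 and Aldh16a1 of the family.

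**Figure D5:**
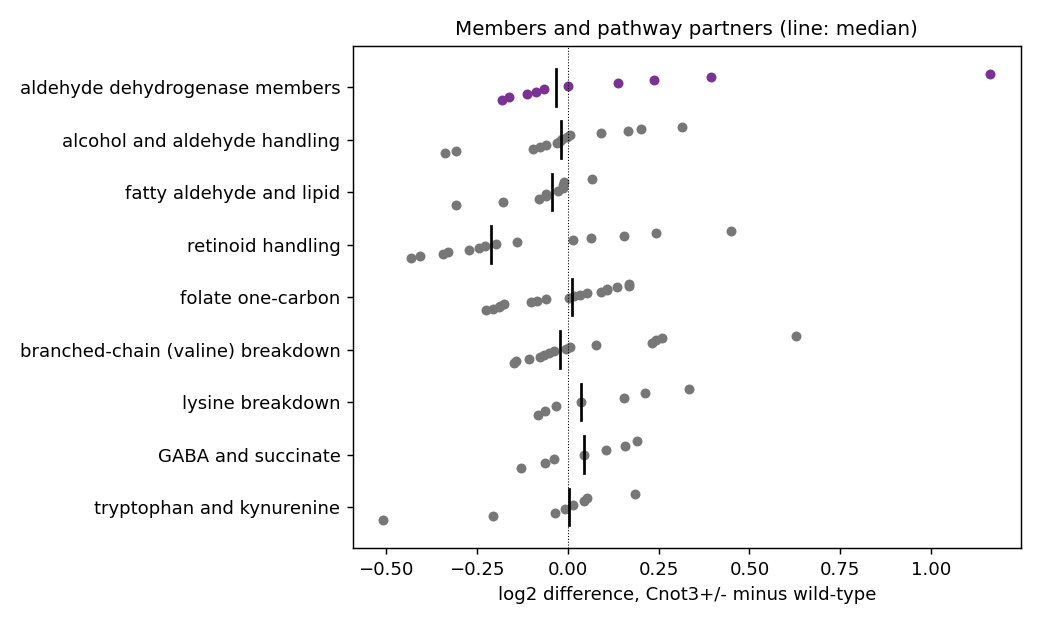
Log2 difference, Cnot3+/- minus wild-type (horizontal axis), of the 10 members and of the partner genes tested in each of 8 lists (rows), with 1 point for each gene and a line at the median. Aldh1b1, at 1.16, is the point furthest to the right, and the furthest partner gene is Bckdhb at 0.63.

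Genes with values nearest to those of Aldh1b1 were found by Euclidean distance over the 4 arrays. Each gene's own mean was first taken off its log2 values. Gene models without a proper symbol, such as Rik, Gm and LOC names, were left out of this search. The nearest 5 were Slc41a2, a magnesium transporter gene, at a distance of 0.24, Smim22 at 0.26, Apcs at 0.36, the collagen gene Col5a2 at 0.38 and the scavenger receptor gene Scara5 at 0.41. Slc41a2 had values of 8.11 and 7.90 in Cnot3+/- livers, against 7.31 and 6.84 in wild-type livers. Apcs, which encodes the acute phase protein serum amyloid P, had values of 11.49 and 10.73 in Cnot3+/- livers, against 10.09 and 9.80 in wild-type livers. Smim22 was read by an _x_at probe set, a kind that can match several transcripts. All 5 genes were higher in both Cnot3+/- arrays than in both wild-type arrays. The search itself fixed that result at these distances, because the groups of Aldh1b1 lay 0.83 apart. None of the 5 passed in limma.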

How the data were processed

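The values as deposited are log2 RMA values; the submitters' processing notes name RMA. This method subtracts background, brings arrays to a common distribution and gives 1 value per probe set. The RMA version, and the set of arrays it was run on, are unknown here. The log2 scale was read from the values. Nothing further was normalized.

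Probe sets were named through the platform's annotation, and control probe sets were left out. The lowest 40% by mean (below 4.06) were removed, which all 18 member probe sets passed. For each gene the probe set with the highest mean was used, with _x_at and _s_at sets used only where no other existed. Genes were fitted in limma 3.58.1 (R 4.3.3) over all 4 arrays, two-sided, with no covariate, 2 residual and 3.17 prior degrees of freedom, and Benjamini-Hochberg adjustment over 13379 genes. Values of further probe sets come from the same fit over all probe sets with 1 symbol. The script was tested on simulated data. With 2 arrays a group, the number of arrays limits the precision. The p-values set each difference against the spread between these few samples, after that spread was drawn towards the one typical of all genes tested.

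The members, lists and tests were chosen with earlier results of these data known. The genes named are all members and other family genes, Cnot3, and the 5 genes nearest Aldh1b1 among those with a proper symbol. The 2 genes of largest difference in each partner list are also named, with fixed neighbours of the members. Lrat, Slc1a2, Apoa1 and Alb are added as marker genes. The alternatives changed the filter, the probe set rule, the normalization, the variance model and the arrays used, and added the replicate as a block.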

Additional observations from a re-analysis of the deposited data

How the results depend on the processing

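No member passed the threshold under any of the 12 alternatives, and the smallest adjusted p of Aldh1b1 among them was 0.276. Its difference ran from 1.12 to 1.18 over the 8 alternatives that kept all arrays. Of these, only quantile normalization (1.12) and subtraction of each array's median (1.18) could move it. Aldh1b1 has 1 probe set, and the block and variance model do not enter this difference of means. The other settings therefore left it at 1.16. The number of genes called among all tested, 2 with the settings of the report, was 0 with the replicate number as a block, 1 without moderation of variances (a gene lower in Cnot3+/-, so neither of the 2 higher genes was called there), and 0 to 36 with an array left out; it was 36 without Cnot3+/- 1 and 0 without wild-type 1 or without wild-type 2. The cause of these changes was not tested. The replicate numbers pair the samples only by number: across genes, the difference between replicates 1 and 2 in Cnot3+/- correlated with that in wild-type at r = 0.16 over all genes tested and 0.41 over the 10 members. Aldh7a1 differed by 0.042 with its probe sets averaged, which mixes 2 dim probe sets into its value. With an array left out, Aldh1a7, Aldh3a2, Aldh5a1 and Aldh6a1 each changed sign in 1 of 4 cases and Aldh2 in 2 of 4. Aldh2, at a difference near 0, also turned to -0.02 after quantile normalization. Among 152 other genes followed, direction changed in 126 of 608 values with an array left out and in 22 of 1199 others. Subtracting each array's median was chosen after seeing the data.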
